A study of Homo sapiens with 18 samples.

Results

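The genes described here encode proteins that make ribosomes in the nucleolus: subunits and factors of RNA polymerase I (Pol I), small nucleolar ribonucleoprotein (snoRNP) proteins, nucleolar chaperones and the assembly factors of both ribosomal subunits. They are a list of 48 gene symbols, read in every library as CPM (reads of a gene scaled to the reads of the library), out of 23250 symbols listed. All 48 were found, and all 48 were among the 12769 genes tested. RNA came from SUDHL6, Farage and SUDHL4 cells, 3 established lines of human B-cell lymphoma. Cells received either DMSO, the vehicle, or 10 µM of the BCL6 inhibitor 79-6.1085, both for 12 h, with 3 libraries per line and treatment, so 18 in 6 groups. BCL6 is the transcriptional repressor of germinal centre B cells, and each line stands for itself alone. Whether the replicates were separate cultures is not given in the sources used here, so p-values measure the spread between these libraries, which may be technical.

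Ribosome production starts when Pol I copies the ribosomal DNA repeats into a long precursor RNA. SnoRNPs then guide the methylation and pseudouridylation of that precursor, the small subunit processome folds and cuts it, and separate sets of factors complete the small and large subunits before export to the cytoplasm. The transcription factor MYC, which pairs with MAX on E-box sites of the sequence CACGTG, is known as a broad activator of these genes. The size of the change in each line was therefore set beside that of MYC.

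The E-box was looked for in the promoters of the 48 genes, in the RefSeq table of GRCh38.p14, which holds 300 bases of each gene, from 250 before to 50 after its start. The motif is its own reverse complement, so both strands give the same matches. Of the 40 genes with an entry, 16 (40%) held CACGTG, against 12.9% of 8891 tested genes with an entry and 8.77% of all 27305 symbols in the table. The 16 were FBL, RRP9, GAR1, NOP10, MYBBP1A, GNL3, LYAR, DDX21, NOP14, UTP20, WDR43, NAT10, PNO1, BYSL, NOP2 and PES1. The first 4 stretches of 30 bases below are shown because they belong to the genes of the largest mean fall among those given by library below that carry the motif, with the motif in capitals, and a 5th because its gene, chosen after its values were seen, carried the motif at 2 places and had the smallest mean fall among the snoRNP genes.
MYBBP1A, chr17:4555340-4555369, minus strand: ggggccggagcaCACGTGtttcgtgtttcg
RRP9, chr3:51941892-51941921, minus strand: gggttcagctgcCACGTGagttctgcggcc
BYSL, chr6:41921515-41921544, plus strand: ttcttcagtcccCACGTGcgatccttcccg
UTP20, chr12:101280083-101280112, plus strand: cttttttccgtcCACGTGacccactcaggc
NOP10, chr15:34343130-34343159, minus strand: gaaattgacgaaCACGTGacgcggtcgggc
The motif began 27 bases after the start in MYBBP1A and 28 after it in BYSL, and 5, 10 and 11 bases before it in RRP9, UTP20 and NOP10. Of the 17 matches in the 16 genes, 15 (88.2%) lay within 35 bases of the start, against 25.6% of the 2821 matches over all entries, a distance chosen after the positions were seen. POLR1E, NOP58, NOLC1, RRP12, BOP1, RRP1B, RRS1 and DDX18 had no entry.

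Reads in listed genes numbered 6.29 to 25.5 M per library, lowest in replicate 3 of both SUDHL6 groups, and 3 reads were at most 0.362 CPM in any library. Listed genes held 77.6 to 80.7% of the CPM divisor with DMSO and 74.6 to 80.3% with the inhibitor. The median distance over genes of a library from the mean of its partners, in log2(CPM + 1), was 0.12 for replicate 3 of SUDHL4 DMSO and 0.07 and 0.09 for its partners. It was 0.24 for replicate 1 of treated SUDHL6 and 0.21 and 0.22 for its partners, and 0.18 for replicate 3 of SUDHL6 DMSO and 0.14 and 0.12 for its partners. All 7 B cell markers were above 1 CPM in every library, at a summed 2218 to 7117 CPM. Their sum was lower with the inhibitor in each line, at 5495 to 5911 CPM with DMSO against 2297 to 3468 with the inhibitor in SUDHL6, 3720.0 to 3878 against 2218 to 2354 in Farage, and 6624 to 7117 against 4439 to 4546 in SUDHL4, and its part in the results below was not tested. T cell markers summed to at most 1.71 CPM, myeloid to 3.50 and stromal and epithelial to 7.34. In bulk RNA, fewer cells of a kind and less RNA per cell cannot be told apart.

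Nearly the whole set was lower with the inhibitor, by median change most in SUDHL4 and least in Farage. A gene was called lower or higher at an adjusted p threshold of 0.05 in limma, with Benjamini-Hochberg adjustment over all 12769 genes, and changes are log2(CPM + 1) of treated minus DMSO. SUDHL6 had 45 of the 48 called lower and 1 higher, where 41.3% of all genes tested were called lower. Farage had 39 lower and 2 higher, against 46.5% of genes called lower, and SUDHL4 had 47 lower and none higher, against 46.2%. At an unadjusted p under 0.05, SUDHL4 likewise had 0 higher in limma and in DESeq2 and 1 in edgeR. The adjusted counts rest on a spread that the 3 lines share. With each line alone in the limma fit, 42 were called lower in SUDHL6, 44 in Farage and 47 in SUDHL4. In the mean of the 3 lines 47 fell and 1 rose, against 53.8% of genes called lower. The SE and p-values of this mean come from the spread of libraries within groups and do not measure the spread between lines. The same 38 genes were called lower in all 3 lines, 28.3% of genes tested being so called. In each line alone all treated libraries lay below all DMSO libraries for 45 genes in SUDHL6 (36.5% of genes tested), 45 in Farage (53.2%) and 48 in SUDHL4 (51.6%). In all 3 lines this held for 44 of the 48, against 28.9% of genes tested, and RRN3, NOP10, NPM1 and NIP7 were the exceptions.

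The median change over the 48 was -0.94 in SUDHL6, -0.53 in Farage and -1.48 in SUDHL4, against -0.13, -0.22 and -0.21 over all genes tested. Relative to all genes the set stood at -0.81, -0.31 and -1.26. The summed CPM of the 48 went from 8114 ± 340 to 4276 ± 300.4 in SUDHL6 (SD, n = 3 in each group here and below), which left 52.7%. Farage went from 6642 ± 99.5 to 4721 ± 213 (71.1% left), and SUDHL4 from 6321 ± 391 to 2521 ± 184 (39.9% left). By gene, 22 in SUDHL6, 12 in Farage and 37 in SUDHL4 kept less than 50% of their DMSO level, and 2, 2 and 14 kept less than 25%. No share over all genes is given for these 2 levels. In change, 22, 12 and 36 genes fell by 1 or more on the log2 scale, against 16.2%, 19.0% and 20.0% of all genes tested.

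Scaling by median of ratios set the median of all genes to -0.00016 in SUDHL6, -0.04 in Farage and -0.0042 in SUDHL4, and with it 42, 26 and 41 of the 48 were called lower, where 34.8%, 37.2% and 36.1% of all genes were. All-gene calls in the mean of the lines then split into 44.4% lower and 39.4% higher, in place of 53.8% and 30.1%. Farage was touched most, since POLR1B, POLR1C, POLR1E, FBL, GAR1, NOLC1, DDX21, NAT10, NOB1, TSR1, NOP16, DDX18 and GRWD1 were no longer called there. SUDHL6 lost NOP10, NPM1 and RRP12, and SUDHL4 lost NOP58, FBL, NOP10, NPM1, RRP12 and NOB1. Called lower in all 3 lines were then 26 genes, against 20.7% of all genes tested.

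**Figure D1:**
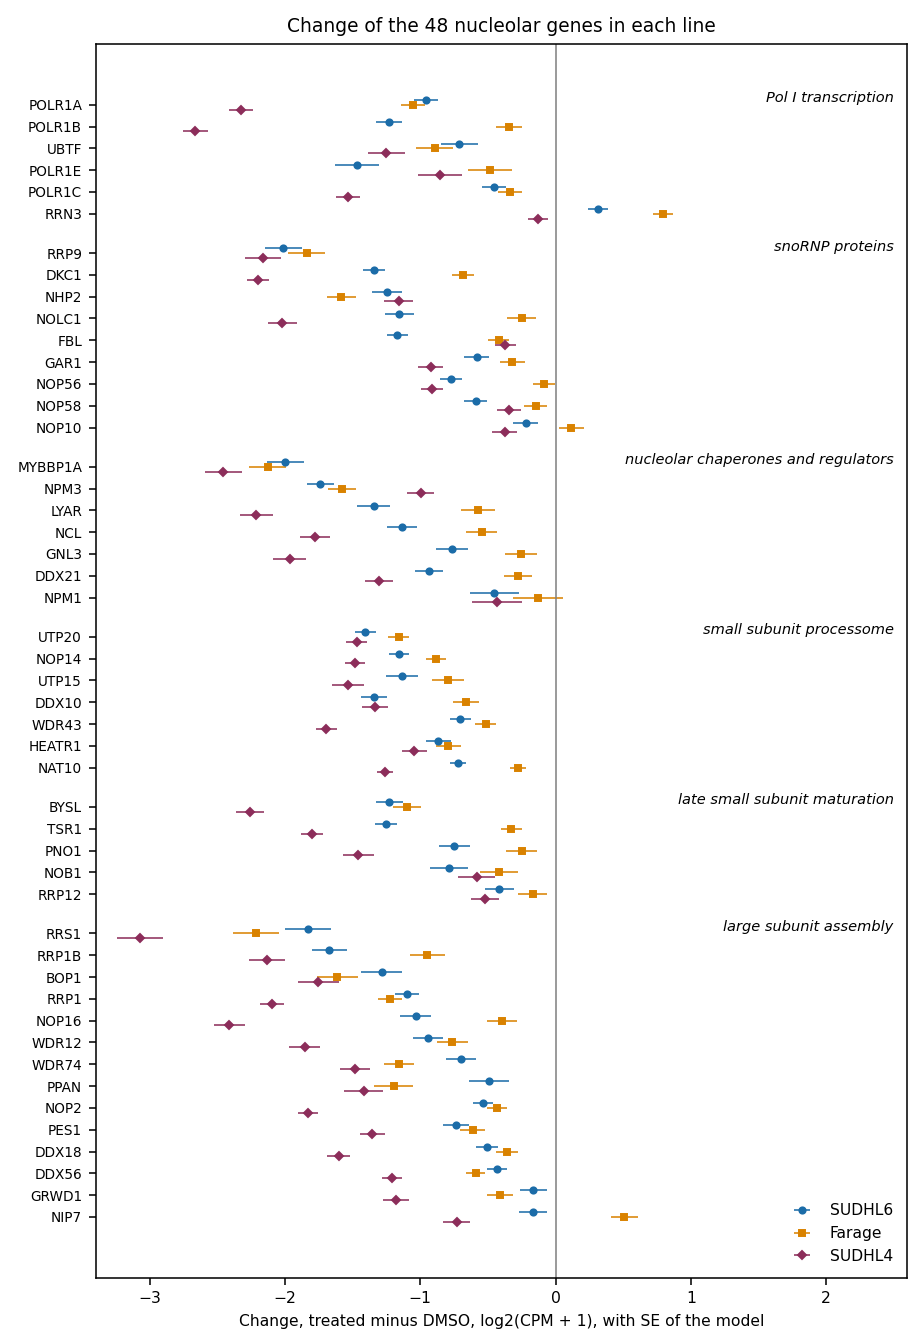
Change of each of the 48 genes (log2(CPM + 1), treated minus DMSO, x axis) in SUDHL6, Farage and SUDHL4, grouped by role, with the SE of the model as bars. Most points lie left of 0, SUDHL4 is the lowest line for 40 of the 48 genes, and RRN3 and NIP7 lie right of 0 in Farage.

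Of the 6 Pol I transcription genes 5 fell in each of the 3 lines, with medians of -0.84 in SUDHL6, -0.41 in Farage and -1.39 in SUDHL4. POLR1A, the largest Pol I subunit, was at 156, 153 and 151 CPM in SUDHL6 with DMSO and 88, 72.9 and 74.6 with the inhibitor. Farage had 110.5, 94.5 and 102 CPM of it with DMSO and 49.5, 47.2 and 49.7 with the inhibitor. SUDHL4 went from 69.2, 79.2 and 62.8 to 13.6, 13.3 and 12.7 CPM. No groups overlapped, and SUDHL4 had the lowest treated libraries. The changes of POLR1A were -0.96 (SE 0.0890, adjusted p = 1.09e-07) in SUDHL6, -1.05 (SE 0.0890, adjusted p = 2.74e-08) in Farage and -2.32 (SE 0.0890, adjusted p = 8.48e-12) in SUDHL4. POLR1B, which forms the catalytic core with it, was at 123, 114 and 118 with DMSO and 43.8, 51.1 and 55.3 CPM with the inhibitor in SUDHL6. Its Farage libraries had 87.3, 88.8 and 85.3 with DMSO and 63.4, 67.9 and 74.6 CPM with the inhibitor. Groups again did not overlap, and the Farage groups lay closest. In SUDHL4, POLR1B was at 88.4, 96.9 and 80.9 CPM with DMSO and 12, 13.4 and 14.1 with the inhibitor. POLR1B changed by -1.23 (SE 0.0935, adjusted p = 1.44e-08), -0.34 (SE 0.0935, adjusted p = 0.00352) and -2.66 (SE 0.0935, adjusted p = 7.24e-12) in SUDHL6, Farage and SUDHL4, which left 42.3%, 78.7% and 14.8% of its DMSO level. The other subunits POLR1C and POLR1E and the ribosomal DNA binding factor UBTF fell in every line, with changes of -0.46, -0.34 and -1.53 for POLR1C, -1.47, -0.48 and -0.86 for POLR1E, and -0.71, -0.89 and -1.25 for UBTF. The Farage calls of POLR1B, POLR1C and POLR1E were lost under median-of-ratios scaling (changes of -0.10, -0.10 and -0.24), edgeR and DESeq2.

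RRN3 went the other way. It is the initiation factor that joins Pol I to its promoter factors. RRN3 in SUDHL6 was at 64.4, 55.4 and 65.2 CPM with DMSO and 81.4, 70.7 and 78.6 with the inhibitor. Farage went from 61.6, 63.7 and 64.5 to 109, 109.9 and 112 CPM, while SUDHL4 had 61, 61.9 and 58.6 CPM with DMSO and 56.4, 57.3 and 52.1 with the inhibitor. Treated libraries lay above DMSO in SUDHL6 and Farage and below it in SUDHL4. RRN3 rose in SUDHL6, 0.31 (SE 0.0734, adjusted p = 0.00117), and in Farage, 0.79 (SE 0.0734, adjusted p = 7.69e-08), and its change in SUDHL4, -0.13 (SE 0.0734, adjusted p = 0.130), did not pass the test and had the opposite sign under median-of-ratios scaling (0.17), edgeR (0.20) and DESeq2 (0.18). The files also list the RRN3 copies RRN3P1, RRN3P2 and RRN3P3, at 1.48 to 14.2, 0 to 4.63 and 2.36 to 5.78 CPM, so reads may be split among them.

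**Figure D2:**
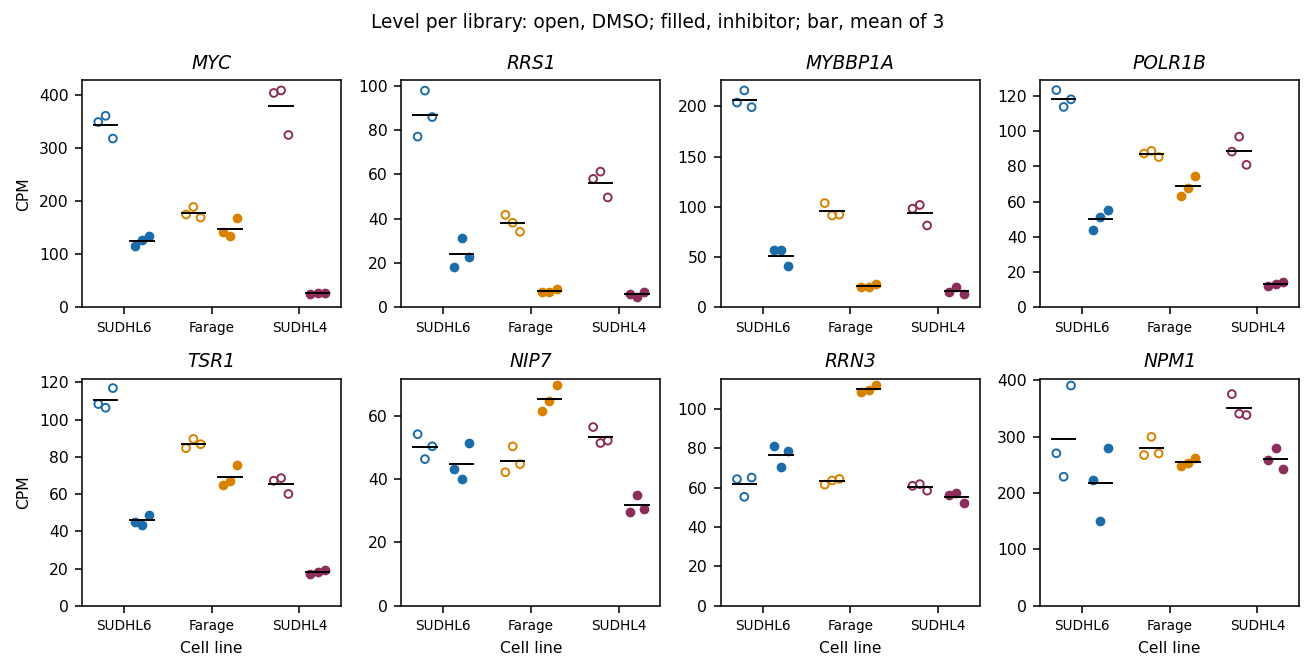
CPM in each library (y axis, from 0) of MYC and 7 of the genes by cell line, open points for DMSO, filled for the inhibitor, bars for the mean of 3. RRN3 and NIP7 in Farage have the treated points above the DMSO points, and NPM1 in SUDHL6 has overlapping groups.

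All 9 snoRNP genes fell in SUDHL6 and in SUDHL4 and 6 of 9 in Farage, with medians of -1.16, -0.92 and -0.32 in SUDHL6, SUDHL4 and Farage. RRP9, a protein of the U3 snoRNP that the early cuts of the precursor need, was at 52.9, 54 and 48.6 CPM in SUDHL6 DMSO libraries and 13.2, 13.3 and 10.0 in treated ones. Farage had 53.1, 59.4 and 55.2 with DMSO and 13.4, 14.3 and 17.1 CPM with the inhibitor. SUDHL4 had 45, 45.6 and 38.9 with DMSO and 8.74, 10.8 and 7.27 CPM with the inhibitor. Every treated library was well below every DMSO library, and the changes were -2.01 (SE 0.133, adjusted p = 3.72e-09), -1.84 (SE 0.133, adjusted p = 5.05e-09) and -2.16 (SE 0.133, adjusted p = 8.98e-10) in SUDHL6, Farage and SUDHL4. None of the 3 line differences for RRP9 was called. DKC1, dyskerin, the pseudouridine synthase of box H/ACA snoRNPs, was at 198, 187 and 203 CPM with DMSO and 72.3, 75.8 and 82.5 with the inhibitor in SUDHL6. In Farage DKC1 went from 176, 184 and 178 to 108, 108 and 117 CPM. In SUDHL4 DKC1 went from 149.7, 156 and 134 to 30.2, 34.8 and 28.3 CPM. The groups did not overlap in any line, and the changes were -1.34 (SE 0.0813, adjusted p = 1.7e-09), -0.68 (SE 0.0813, adjusted p = 1.29e-06) and -2.20 (SE 0.0813, adjusted p = 7.24e-12). FBL, fibrillarin, the methyltransferase of box C/D snoRNPs, had 301, 289 and 307 with DMSO and 123, 128 and 147 CPM with the inhibitor in SUDHL6. Its Farage values were 205, 225 and 201 with DMSO and 148, 158 and 165 CPM with the inhibitor. Its SUDHL4 values were 327, 332 and 312 with DMSO and 251, 269 and 232 CPM with the inhibitor. FBL was thus unlike most of the set in falling most in SUDHL6, -1.17 (SE 0.0779, adjusted p = 3.89e-09), against -0.42 (SE 0.0779, adjusted p = 0.000146) in Farage and -0.37 (SE 0.0779, adjusted p = 0.000445) in SUDHL4. Its calls in Farage and SUDHL4 were lost under median-of-ratios scaling, edgeR and DESeq2.

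NOP10, the smallest of the H/ACA core proteins, had the smallest mean fall of the snoRNP genes. It was at 65.6, 61.7 and 63.6 with DMSO and 58.4, 58 and 47.6 CPM with the inhibitor in SUDHL6. Farage groups overlapped at 44.8, 56.6 and 49.5 with DMSO and 51.9, 54.4 and 57 CPM with the inhibitor, and its Farage change, 0.12 (SE 0.0917, adjusted p = 0.269), was called higher under median-of-ratios scaling (0.36, adjusted p = 0.00258 in limma), edgeR (0.36, 0.00422) and DESeq2 (0.37, 0.000309). NOP10 in SUDHL4 went from 63.6, 60.3 and 58.8 to 46.6, 49.5 and 44.2 CPM, without overlap. The mean change of NOP10 was -0.16 (SE 0.0529, adjusted p = 0.0103), and it was above 0 under median-of-ratios scaling (0.08), edgeR (0.10) and DESeq2 (0.09). Its calls in SUDHL6 and SUDHL4 were lost under these settings too, and the SUDHL6 call also in 8 of the 18 fits that left out 1 library (adjusted p of 0.0504 to 0.218 in limma). NHP2, the partner of DKC1 in the H/ACA core, changed by -1.25, -1.58 and -1.16 and was the only one of the 48 lowest in Farage. The box C/D core proteins NOP56 and NOP58 fell in SUDHL6 (-0.77 and -0.59) and SUDHL4 (-0.91 and -0.34), and their Farage changes of -0.08 and -0.15 did not pass the test and were above 0 under median-of-ratios scaling. The snoRNP chaperone NOLC1 changed by -1.16 in SUDHL6 and -2.02 in SUDHL4, with -0.25 in Farage, a call lost in 9 of those 18 fits (adjusted p of 0.0512 to 0.152 in limma), and GAR1 by -0.58, -0.92 and -0.32.

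The 7 nucleolar chaperones and regulators all fell in SUDHL6 and SUDHL4 and 5 of 7 fell in Farage, with medians of -1.14, -1.78 and -0.55. MYBBP1A, a nucleolar protein that binds MYB and takes part in ribosomal RNA synthesis, was at 204, 216 and 199 CPM in SUDHL6 and then 57, 56.6 and 40.6. Farage went from 104, 91.4 and 92.2 to 19.8, 20.5 and 23 CPM. SUDHL4 went from 98.1, 102 and 81.4 to 15.7, 19.9 and 13.6 CPM. Between 17.5 and 24.9% of its DMSO level was left in the 3 lines, the changes being -1.999 (SE 0.138, adjusted p = 5.7e-09), -2.13 (SE 0.138, adjusted p = 1.55e-09) and -2.46 (SE 0.138, adjusted p = 3.35e-10) in SUDHL6, Farage and SUDHL4. NPM3, a nucleoplasmin of the nucleolus, had 62.4, 59.5 and 68.3 with DMSO and 16, 17.6 and 21.6 CPM with the inhibitor in SUDHL6. Farage had 32.3, 35 and 31.2 with DMSO and 9.74, 9.91 and 11.3 CPM of NPM3 with the inhibitor. SUDHL4, where it was highest before treatment, had 85.2, 82.5 and 74.8 CPM with DMSO and 37.9, 41.9 and 40.1 with the inhibitor. NPM3 fell least in SUDHL4, -0.998 (SE 0.102, adjusted p = 2.16e-07), against -1.74 (SE 0.102, adjusted p = 1.19e-09) in SUDHL6 and -1.58 (SE 0.102, adjusted p = 1.49e-09) in Farage.

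NPM1, nucleophosmin, an abundant histone chaperone of the granular nucleolus, had the smallest mean fall of this group. NPM1 in SUDHL6 was spread widely, at 270.4, 229 and 390.5 CPM with DMSO and 223, 151 and 279 with the inhibitor, and the groups overlapped. By replicate number the treated library was the lower one in 3 of 3 pairs of SUDHL6, and with the replicate block the adjusted p in limma was 0.000212. Farage had 267, 299.6 and 270.1 with DMSO and 248, 253 and 263 CPM with the inhibitor, and SUDHL4 375, 340.5 and 338 CPM with DMSO and 259, 279 and 243 with the inhibitor. The changes were -0.45 (SE 0.184, adjusted p = 0.0386), -0.13 (SE 0.184, adjusted p = 0.549) and -0.43 (SE 0.184, adjusted p = 0.0454), and the calls in SUDHL6 and SUDHL4 and in the mean were lost under median-of-ratios scaling, edgeR and DESeq2, where Farage was above 0. The SUDHL6 call was also lost without replicate 3 of SUDHL6 DMSO or replicate 2 of treated SUDHL6 (adjusted p of 0.236 and 0.254, in limma), and the SUDHL4 call in 13 of the 18 fits without 1 library (0.0517 to 0.123). These fits use 1 SE for all lines, to which the wide spread in SUDHL6 adds. With each line alone in the limma fit, the adjusted p was 0.248 in SUDHL6, 0.0443 in Farage and 0.00125 in SUDHL4. NPM1 has many processed copies in the genome, so its counts are uncertain. The nucleolin gene NCL, the nucleolar helicase DDX21 and LYAR fell in all 3 lines, with -1.14, -0.55 and -1.78 for NCL, -0.94, -0.28 and -1.30 for DDX21, and -1.34, -0.57 and -2.21 for LYAR in SUDHL6, Farage and SUDHL4. The Farage call of DDX21 was lost without replicate 2 or 3 of Farage DMSO or replicate 1 of treated Farage (adjusted p of 0.0514 to 0.0704 in limma). GNL3, nucleostemin, fell in SUDHL6 (-0.77) and SUDHL4 (-1.97), with -0.25 (SE 0.120, adjusted p = 0.0693) in Farage.

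The small subunit processome had all 7 genes lower in all 3 lines, with medians of -1.14, -0.79 and -1.47 in SUDHL6, Farage and SUDHL4. UTP20, a large scaffold protein, was at 92, 88.1 and 109 CPM with DMSO and 35.9, 33.9 and 36.8 with the inhibitor in SUDHL6. UTP20 in Farage went from 119.7, 111 and 117 to 53.5, 49.4 and 50.6 CPM. UTP20 in SUDHL4 went from 59.2, 63 and 58.4 to 22.1, 20.1 and 21.1 CPM. The groups were far apart, and the changes were -1.41 (SE 0.0779, adjusted p = 6.95e-10), -1.16 (SE 0.0779, adjusted p = 2.26e-09) and -1.47 (SE 0.0779, adjusted p = 1.97e-10). Of the line differences for UTP20 only SUDHL4 minus Farage was called, at -0.31 (SE 0.110, adjusted p = 0.0367 in limma). NOP14, another processome protein, had 146, 155 and 156 with DMSO and 62.7, 69.6 and 70.9 CPM with the inhibitor in SUDHL6. NOP14 in Farage was at 178, 180.4 and 171 with DMSO and 93.5, 90.1 and 102 CPM with the inhibitor. NOP14 in SUDHL4 was at 114, 124 and 106 with DMSO and 39.8, 41.5 and 39.9 CPM with the inhibitor. No libraries of opposite groups overlapped, and NOP14 changed by -1.16 (SE 0.0721, adjusted p = 2.2e-09), -0.88 (SE 0.0721, adjusted p = 1.92e-08) and -1.48 (SE 0.0721, adjusted p = 7.52e-11). NAT10, the acetyltransferase that modifies cytidines of the small subunit RNA, had the smallest mean fall here. It had 104, 104 and 110.4 with DMSO and 62.6, 64.7 and 64.4 CPM with the inhibitor in SUDHL6. Farage had 166, 173 and 166 with DMSO and 138, 136 and 143 CPM of NAT10 with the inhibitor. SUDHL4 had 209.5, 215 and 189.9 with DMSO and 84.6, 86.4 and 83.2 CPM of it with the inhibitor. Replicates of NAT10 agreed closely, so that its changes of -0.72 (SE 0.0585, adjusted p = 2.8e-08), -0.28 (SE 0.0585, adjusted p = 0.000477) and -1.26 (SE 0.0585, adjusted p = 4.34e-11) had the smallest SE of the genes given by library. The Farage call of NAT10 was lost under median-of-ratios scaling (-0.03), edgeR (-0.04) and DESeq2 (-0.02). UTP15, HEATR1, WDR43 and the helicase DDX10 ranged from -1.34 to -0.70 in SUDHL6, from -0.80 to -0.52 in Farage and from -1.69 to -1.05 in SUDHL4.

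The 5 factors of late small subunit maturation all fell in SUDHL6 and SUDHL4, and 3 of the 5 fell in Farage, with medians of -0.79, -1.46 and -0.33. BYSL, bystin, was at 114, 117 and 107 CPM with DMSO and 44.8, 46.3 and 51.5 with the inhibitor in SUDHL6. BYSL in Farage went from 46.9, 51.7 and 48.9 to 21.5, 20.9 and 25.1 CPM. BYSL in SUDHL4 went from 40.7, 41.6 and 32.1 to 6.49, 7.51 and 7.41 CPM. It was lowest in treated SUDHL4, and its changes were -1.23 (SE 0.102, adjusted p = 3.6e-08), -1.10 (SE 0.102, adjusted p = 8.06e-08) and -2.26 (SE 0.102, adjusted p = 3.37e-11) in the same order. TSR1, a GTPase-like factor of pre-small subunits, had 108, 106 and 117 with DMSO and 45.2, 43.3 and 49 CPM with the inhibitor in SUDHL6. TSR1 in Farage was at 84.7, 89.7 and 86.8 with DMSO and 65.1, 67.2 and 75.8 CPM with the inhibitor. TSR1 in SUDHL4 was at 67.2, 68.6 and 60.1 with DMSO and 16.9, 18 and 19.3 CPM with the inhibitor. The lines stood clearly apart in this gene, with changes of -1.25 (SE 0.0796, adjusted p = 2.67e-09), -0.33 (SE 0.0796, adjusted p = 0.00157) and -1.80 (SE 0.0796, adjusted p = 2.78e-11). Its Farage call was lost under median-of-ratios scaling (-0.08), edgeR and DESeq2. RRP12, which helps to export the pre-subunits, had the smallest mean fall here. RRP12 in SUDHL6 had 107, 118 and 112 with DMSO and 93.3, 90.8 and 69.5 CPM with the inhibitor. Farage had 80.3, 83.5 and 77.4 with DMSO and 70.1, 71.3 and 72.6 CPM of it with the inhibitor, and SUDHL4 55.3, 57.9 and 52.3 CPM with DMSO and 37.1, 44.3 and 33.6 with the inhibitor. Treated libraries were below DMSO in each line, but by little: -0.41 (SE 0.106, adjusted p = 0.00239), -0.17 (SE 0.106, adjusted p = 0.162) and -0.52 (SE 0.106, adjusted p = 0.00033). Its calls were lost under median-of-ratios scaling, edgeR and DESeq2, where Farage was above 0. PNO1 changed by -0.75 in SUDHL6 and -1.46 in SUDHL4 with -0.25 (SE 0.115, adjusted p = 0.0608) in Farage, and NOB1, the nuclease of the final cut of the small subunit RNA, by -0.79, -0.58 and -0.42 in SUDHL6, SUDHL4 and Farage, the Farage call being lost without replicate 1 of treated Farage (adjusted p = 0.0535 in limma).

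Of the 14 large subunit assembly genes, 12 fell in SUDHL6, 13 in Farage and 14 in SUDHL4, with medians of -0.72, -0.69 and -1.68. RRS1, a factor of early large subunit assembly, had the largest mean fall of all 48, -2.37 (SE 0.0981, adjusted p = 2.15e-12). RRS1 in SUDHL6 was at 77, 97.7 and 85.8 CPM with DMSO and 18.4, 31.4 and 22.7 with the inhibitor. RRS1 in Farage was at 41.7, 38.1 and 34 with DMSO and 6.71, 7.12 and 8.31 CPM with the inhibitor. SUDHL4 libraries had 57.9, 61.2 and 49.5 CPM of RRS1 and then 6.09, 4.56 and 6.94, the lowest mean of the treated groups. What was left was 27.8% in SUDHL6, 19.4% in Farage and 10.4% in SUDHL4, for changes of -1.83 (SE 0.170, adjusted p = 1.11e-07), -2.22 (SE 0.170, adjusted p = 9.4e-09) and -3.07 (SE 0.170, adjusted p = 2.92e-10). RRP1B, a nucleolar protein related to RRP1, had 174, 172 and 186 with DMSO and 42.4, 58.3 and 66.8 CPM with the inhibitor in SUDHL6. RRP1B in Farage went from 132, 129 and 132 to 64.1, 65.8 and 72.7 CPM. RRP1B in SUDHL4 went from 158, 173 and 144 to 32.1, 33.2 and 41.2 CPM. No groups overlapped, and the changes were -1.67 (SE 0.130, adjusted p = 1.78e-08), -0.95 (SE 0.130, adjusted p = 6.13e-06) and -2.13 (SE 0.130, adjusted p = 7.79e-10). NOP2, which methylates cytosine in the large subunit RNA, had 219, 231 and 216 with DMSO and 139.6, 163 and 157 CPM with the inhibitor in SUDHL6. NOP2 in Farage was at 116, 121 and 119 with DMSO and 83.3, 85.8 and 94.7 CPM with the inhibitor. NOP2 in SUDHL4 was at 173, 181 and 153 with DMSO and 46, 45.7 and 48.2 CPM with the inhibitor. The fall was mostly in SUDHL4, -1.83 (SE 0.0762, adjusted p = 1.6e-11), against -0.54 (SE 0.0762, adjusted p = 1.07e-05) in SUDHL6 and -0.43 (SE 0.0762, adjusted p = 8.25e-05) in Farage.

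NIP7, a large subunit factor, was the other gene that rose in a line. NIP7 in SUDHL6 overlapped between groups, at 54.2, 46.3 and 50.3 with DMSO and 43.1, 39.9 and 51.5 CPM with the inhibitor. Farage went up from 42.1, 50.3 and 44.7 to 61.6, 64.8 and 69.6 CPM, and SUDHL4 went down from 56.4, 51.4 and 52.1 to 29.7, 35 and 30.5. Its changes were -0.17 (SE 0.101, adjusted p = 0.154), 0.51 (SE 0.101, adjusted p = 0.000275) and -0.73 (SE 0.101, adjusted p = 6.51e-06), and the mean of the lines, -0.13 (SE 0.0584, adjusted p = 0.0476), was above 0 under median-of-ratios scaling (0.11), edgeR (0.12) and DESeq2 (0.12). That mean call was lost in 13 of the 18 fits without 1 library (adjusted p of 0.0506 to 0.105 in limma). The 3 genes of the PeBoW complex, which matures the large subunit RNA, fell in every line: PES1 with -0.74, -0.61 and -1.36, BOP1 with -1.28, -1.61 and -1.75, and WDR12 with -0.94, -0.76 and -1.85. NOP16, RRP1, WDR74, PPAN and the helicases DDX18 and DDX56 also fell in every line, PPAN at a low level of 0.959 to 6.63 CPM (its readthrough with P2RY11 is listed at 0 in every library), with -2.41 for NOP16 in SUDHL4 the largest of these falls. The SUDHL6 call of PPAN, at -0.49 (SE 0.146, adjusted p = 0.00686), was lost without replicate 2 of SUDHL6 DMSO (-0.32, adjusted p = 0.050005 in limma) and with SUDHL6 alone in the fit (0.0582). GRWD1, a histone-binding nucleolar protein, fell in Farage (-0.41) and SUDHL4 (-1.18), with -0.16 (SE 0.0968, adjusted p = 0.146) in SUDHL6, above 0 under median-of-ratios scaling (0.01), edgeR (0.03) and DESeq2 (0.02). The Farage calls of NOP16, DDX18 and GRWD1 were lost under these settings.

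MYC itself was at 349, 361 and 318 CPM in SUDHL6 with DMSO and 115, 126 and 134 with the inhibitor. MYC in Farage was at 175, 189 and 169 with DMSO and 141, 134 and 168 CPM with the inhibitor. MYC in SUDHL4 was at 404, 409 and 325 with DMSO and 25.8, 27.2 and 26.8 CPM with the inhibitor. The Farage groups nearly touched, and SUDHL4 kept 7.01% of its DMSO level. MYC changed by -1.45 (SE 0.0985, adjusted p = 4.88e-09) in SUDHL6, -0.27 (SE 0.0985, adjusted p = 0.0207) in Farage and -3.78 (SE 0.0985, adjusted p = 4.45e-13) in SUDHL4. Under edgeR, DESeq2 and scaling by median of ratios the Farage call of MYC was lost, with adjusted p of 0.788 at -0.03, 0.897 at -0.01 and 0.788 at -0.03. It was also lost without replicate 2 of Farage DMSO (adjusted p = 0.0836) and without replicate 1 (0.0685) or 2 (0.105) of treated Farage.

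The order of the lines by median fall of the 48, SUDHL4, then SUDHL6, then Farage, was that of MYC, but the sizes did not keep a fixed ratio. The median gene changed by 64.9% of the change of MYC in SUDHL6, 195% in Farage and 39.1% in SUDHL4, where the Farage share rests on a MYC call that other scalings lost. In SUDHL6 6 of the 48 fell by more than MYC, against 7.29% of all genes tested. In Farage 38 did, against 47.7% of genes, and in SUDHL4 none did, against 1 gene of all those tested. RRS1, MYBBP1A and RRP9 changed by -2.22, -2.13 and -1.84 in Farage, the line in which MYC changed by -0.27. With 3 lines no correlation with MYC was computed.

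**Figure D3:**
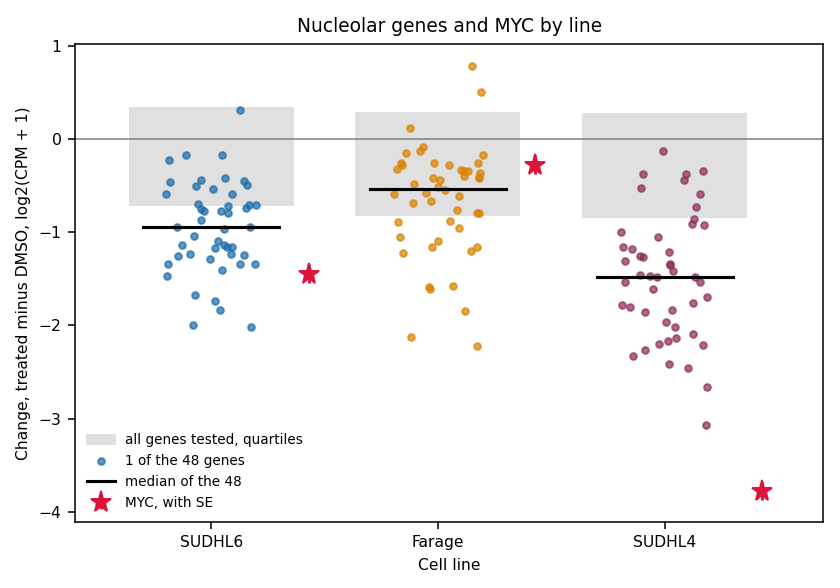
Change of the 48 genes (points), their median (line), the quartiles of all genes tested (grey) and MYC (star, with SE) in each line, in log2(CPM + 1), treated minus DMSO. The medians of -0.94, -0.53 and -1.48 follow the order of MYC at -1.45, -0.27 and -3.78, and in SUDHL4 no point reaches MYC.

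Gene by gene, 30 of the 48 (62.5%) had their changes in the order of MYC, SUDHL4 lowest and Farage highest, against 18.2% of all genes tested, and 28 of 48 had it under median-of-ratios scaling and under edgeR. A further 10, among them POLR1A, MYBBP1A, RRP1 and RRS1, were lowest in SUDHL4 but lower in Farage than in SUDHL6. SUDHL4 was the lowest line for 40 genes (37.4% of genes tested) and Farage the least lowered for 35 (31.7%). POLR1E, NOP58, NPM1, DDX10 and NOB1 were lowest in SUDHL6 and highest in Farage, FBL and NPM3 lowest in SUDHL6 and highest in SUDHL4. The differences between lines were then tested themselves. For SUDHL4 minus Farage, 33 genes had the lower change in SUDHL4 and 2 (NHP2 and NPM3) the higher one, where 19.7% of all genes tested were called lower and 17.7% higher. SUDHL6 against Farage gave 20 lower and 2 higher, where 15.1% and 21.7% of genes were so called, and SUDHL6 against SUDHL4 gave 29 higher and 3 lower, where 22.5% and 12.5% were. Either way this made 35, 22 and 32 of the 48, where 37.4%, 36.8% and 35% of all genes tested were called. The median difference over the 48 was -0.80 for SUDHL4 minus Farage, -0.27 for SUDHL6 minus Farage and 0.54 for SUDHL6 minus SUDHL4. All 3 differences were called in the order of MYC for 13 genes: POLR1B, RRN3, DKC1, NOLC1, NCL, GNL3, LYAR, NOP14, NAT10, PNO1, TSR1, NOP16 and NIP7, against 1.75% of genes tested. POLR1B differed most, by -2.32 (SE 0.132, adjusted p = 2.83e-09) between SUDHL4 and Farage. RRN3, though it rose in Farage and SUDHL6, also had its changes in this order.

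Over the 48 genes the changes in SUDHL6 and Farage had a Pearson r of 0.749, those in SUDHL4 and Farage 0.555 and those in SUDHL6 and SUDHL4 0.60. Over all genes tested, r was 0.737, 0.736 and 0.776 for the same pairs. These are descriptions across genes, which are not independent replicates.

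**Figure D4:**
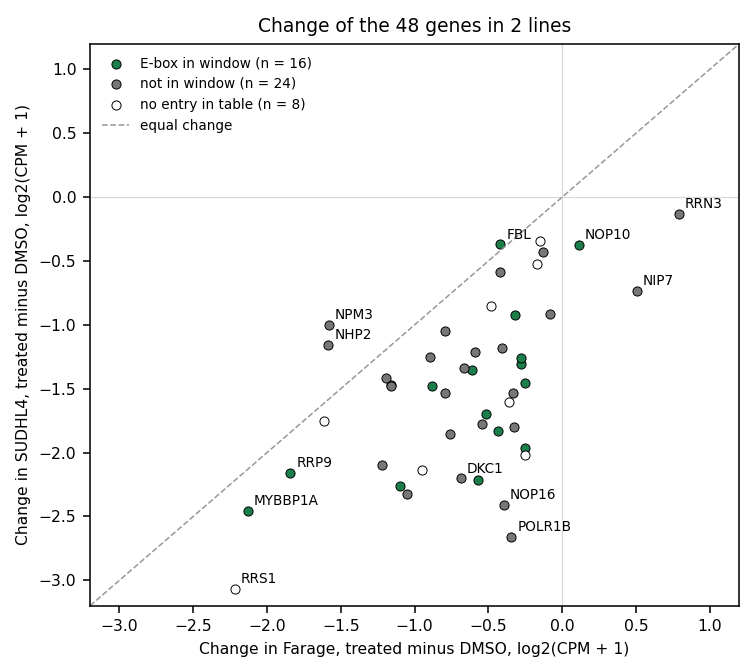
Change of each of the 48 genes in Farage (x axis) and SUDHL4 (y axis), log2(CPM + 1), treated minus DMSO, with filled green points for an E-box in the promoter window, grey for none and open for no entry; the dashed line marks equal change. All genes but FBL, NPM3 and NHP2 lie below the line, and green and grey points are mixed along it.

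Genes with and without the E-box in the promoter window had medians close to each other. The median change in the mean of the lines was -0.95 for the 16 with CACGTG and -1.11 for the 24 without it. By line it was -0.85 and -0.90 in SUDHL6, -0.47 and -0.63 in Farage and -1.48 and -1.38 in SUDHL4. MYBBP1A and RRP9, whose sites are printed above, were among the genes of the largest fall, and NOP10, with 2 sites, had the smallest snoRNP fall. A match is a description of the letters in this window.

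Before treatment most of the genes were highest in SUDHL6. Of the 48, 30 had their highest DMSO mean in SUDHL6, 12 in Farage and 6 in SUDHL4, and 28 had their lowest in SUDHL4. For these counts no share over all genes is given, so they do not set the 48 apart from other genes. Farage was called lower than SUDHL6 for 25 and higher for 7, where 37.5% and 33.8% of all genes were so called. Against SUDHL4, Farage was lower for 9 and higher for 19 (31.1% and 36% of genes), and SUDHL6 was lower for 4 and higher for 28 (30.1% and 38.5%). Processome genes went against this order, since 5 of the 7 were higher in Farage than in SUDHL6, and HEATR1, a processome protein that also acts in Pol I transcription, stood 1.57 higher in Farage than in SUDHL4. BYSL was 1.54 higher in SUDHL6 than in SUDHL4. NPM3 differed by -1.27 (Farage minus SUDHL4), and NAT10 by -0.94 (SUDHL6 minus SUDHL4).

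Other genes of the same pathway, in lists outside the 48, were mostly lower too, with medians closer to that of all genes. In the mean of the lines, where 53.8% of genes tested were called lower and 30.1% higher, 11 of 16 other Pol I genes fell and 2 rose, with a median of -0.56. CD3EAP, a Pol I subunit, changed by -2.43 and went from 11.2 ± 2.24 to 0.835 ± 0.0318 CPM in SUDHL6 (SD, n = 3), POLR2F, a subunit that the polymerases share, by -1.42 and TCOF1, treacle, by -0.95, and the promoter selectivity factor genes TAF1D (0.28) and TAF1A (0.21) rose. TAF1A was higher in Farage (0.95) and lower in SUDHL4 (-0.23, adjusted p = 0.0399 in limma), with -0.08 in SUDHL6 (0.48). TAF1D was not called in SUDHL6 (0.21, adjusted p = 0.0529 in limma). Other small subunit factors had 32 of 43 lower and 8 higher, with a median of -0.71. TBL3 (-1.73), PWP2 (-1.72) and WDR3 (-1.54), all processome proteins, fell most, and the kinases RIOK3 (1.05) and RIOK2 (0.36) and the nuclease-fold protein FCF1 (0.29) rose most. RIOK2 (0.0077, adjusted p = 0.958 in limma) and FCF1 (0.11, 0.321) were not called in SUDHL6. Other large subunit factors had 42 of 48 lower and 3 higher, with a median of -0.63. URB1 (-1.78), MRTO4 (-1.70) and EBNA1BP2 (-1.68) led the falls. The 3 that rose were SBDS (0.75), RSL24D1 (0.71) and LSG1 (0.14), of which SBDS and LSG1 act late, in the cytoplasm. LSG1 was called higher in SUDHL6 alone (0.25, adjusted p = 0.00972 in limma), with 0.02 (0.849) in Farage and 0.15 (0.0945) in SUDHL4.

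The RNA exosome, which trims the precursor, had 12 of 15 genes lower and 1 higher, with a median of -0.55. EXOSC5 changed by -2.39, EXOSC2 by -1.62 and EXOSC7 by -1.33, while EXOSC6 rose by 0.71. Genes of RNA polymerase III, which makes the smallest ribosomal RNA and the transfer RNAs, had 13 of 20 lower and 6 higher, with a median of -0.38. They were led by POLR3G (-1.86) and POLR3K (-1.64) downward and GTF3C3 (0.89), POLR3C (0.32) and BDP1 (0.29) upward. POLR3C was not called in SUDHL4 (0.17, adjusted p = 0.0504 in limma), nor BDP1 in SUDHL6 (0.27, 0.0501) or SUDHL4 (0.0042, 0.987). In the mean of the lines all genes tested had a median of -0.24, with 53.8% called lower and 30.1% higher. By line the Pol III median was -0.08, -0.24 and -0.54 in SUDHL6, Farage and SUDHL4, against -0.13, -0.22 and -0.21 over all genes. In the MYC network 6 of 11 tested genes fell and 3 rose, with a median of -0.23. All genes tested had 53.8% lower and 30.1% higher, with a median of -0.24. MXD1, MXI1 and MXD3 all encode repressors that pair with MAX at the same sites, and they went both ways. MXD1 (2.47) and MXI1 (1.19) rose, while MXD3 (-1.74) fell, with -1.82, -1.98 and -1.42 in SUDHL6, Farage and SUDHL4. MXI1 changed by 0.36, 1.78 and 1.41 in the same order. MLX (-0.78) fell with MYC, and MAX itself (0.48) rose. MXD1 went from 23.3 ± 0.992 to 186 ± 11.6 CPM in Farage, from 21.9 ± 10.4 to 146 ± 20.5 in SUDHL4 and from 23.6 ± 5.31 to 79.4 ± 16 in SUDHL6 (mean ± SD, n = 3).

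Without replicate 3 of SUDHL4 DMSO and replicate 1 of treated SUDHL6, 44, 41 and 46 of the 48 were called lower in SUDHL6, Farage and SUDHL4. Without replicate 3 of both SUDHL6 groups the counts were 45, 39 and 47. Fold changes on log2(CPM + 1) understate the change of weakly expressed genes such as PPAN and BOP1.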

How the data were processed

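RNA-seq was analysed for 18 libraries in 6 groups of 3. The values are CPM as deposited by the authors, whose files carry no header and say CPM and RefSeq in their names. The submitters' processing notes name STAR and hg19, the labels' protocol a TruSeq RNA kit, and 1 label Rsubread. Tool versions, annotation release and strand setting: not given in the sources used here. Overlapping genes, on either strand, may therefore share reads. Dividing each CPM by that of 1 read gave whole reads (100% of values within 0.01 reads), and these were used only in alternatives.

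Genes with CPM of at least 1 in at least 3 libraries (12769) were tested on log2(CPM + 1), not scaled further, by limma 3.58.1 with a trend (R 4.3.3). A model of 6 group means left 12 residual degrees of freedom, and the lines share 1 spread per gene. P-values are two-sided and adjusted by Benjamini-Hochberg over all genes. The step was tested on simulated data with a base level and spread shared by the lines and balanced changes in few genes. Those data do not show how it handles a shift of all genes or a spread that differs by line. Alternatives were a pseudocount of 0.25, no filter, a mean CPM of at least 5, median-of-ratios scaling, edgeR 4.0.16 and DESeq2 1.42.0 on recovered reads, a replicate block, only the compared lines, each library left out and, chosen after seeing the data, 2 settings without doubted libraries.

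The 48 genes and the other lists were chosen with earlier results of these data known. Genes given by library were, in each role group, the 2 of the largest mean fall and the 1 of the smallest fall or largest rise, any not called lower in the mean, and the 3 of smallest p in each line difference, with MYC, and from other lists up to 3 called genes in each direction. Other genes are named with their change. The rule for promoter sequence named upstream bases. Because most motifs lay past the start, 30 bases around each motif are printed in place of that, from RefSeq on GRCh38.p14, which is not the build of the files. Deviations from the group means were alike for equal replicate numbers in SUDHL6 (r = 0.425, 0.488 and 0.632), which pairs its samples by the data, and not in Farage (0.168, -0.128 and -0.189) or SUDHL4 (-0.0535, 0.0344 and -0.0728). NOP9 was not matched by symbol, and BUD23 and NIFK were matched by the older symbols WBSCR22 and MKI67IP.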

Additional observations from a re-analysis of the deposited data

Results flagged for a closer look

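The responses below differed between lines in the test of the difference itself (limma, adjusted over all genes tested), each value being a difference of changes in log2(CPM + 1) with 3 libraries per group. For SUDHL6 minus Farage, TSR1 differed by -0.93 (SE 0.113, adjusted p = 1.06e-05), FBL by -0.75 (SE 0.110, adjusted p = 6.62e-05), POLR1B by -0.89 (SE 0.132, adjusted p = 7.84e-05), RRN3 by -0.48 (SE 0.104, adjusted p = 0.00195) and MYC by -1.18 (SE 0.139, adjusted p = 7.88e-06). For SUDHL4 minus Farage, POLR1B differed by -2.32 (SE 0.132, adjusted p = 2.83e-09), DKC1 by -1.52 (SE 0.115, adjusted p = 5.6e-08), TSR1 by -1.47 (SE 0.113, adjusted p = 6.18e-08), RRN3 by -0.92 (SE 0.104, adjusted p = 4e-06) and MYC by -3.50 (SE 0.139, adjusted p = 7.53e-11). For SUDHL6 minus SUDHL4, NOP2 differed by 1.295 (SE 0.108, adjusted p = 3.12e-07), POLR1B by 1.43 (SE 0.132, adjusted p = 9.86e-07), POLR1A by 1.36 (SE 0.126, adjusted p = 9.86e-07), RRN3 by 0.44 (SE 0.104, adjusted p = 0.00359) and MYC by 2.33 (SE 0.139, adjusted p = 1.19e-08). Beside MYC and RRN3, each pair lists only the 3 genes of the set with the smallest p. POLR1B is the only gene of that choice listed in all 3 pairs. It was not alone in differing in all 3, since 13 genes of the set did, with POLR1B, RRN3, DKC1 and TSR1 among them. RRN3 differs between lines while rising in 2 of them.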

How the results depend on the processing

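Under median-of-ratios scaling, edgeR and DESeq2 the median change of the 48 was -0.76, -0.74 and -0.76 in SUDHL6, -0.29, -0.29 and -0.28 in Farage, -1.19, -1.21 and -1.22 in SUDHL4 and -0.81, -0.81 and -0.81 in the mean, and each of these settings called 42, 26, 41 and 42 lower, in place of 45, 39, 47 and 47. In the same 3 settings, in that order, the sign turned for RRN3 in SUDHL4 (0.17, 0.20 and 0.18), NOP10 in the mean (0.077, 0.096 and 0.093), NPM1 in Farage (0.11, 0.11 and 0.12), RRP12 in Farage (0.072, 0.069 and 0.083), NIP7 in SUDHL6 (0.0069, 0.026 and 0.0090), NIP7 in the mean (0.11, 0.12 and 0.12), GRWD1 in SUDHL6 (0.013, 0.033 and 0.019), NOP56 in Farage (0.16, 0.16 and 0.17) and NOP58 in Farage (0.096, 0.093 and 0.11), and under DESeq2 alone for NOLC1 (0.0066) and GNL3 (0.00049) in Farage. They change the level that all genes are measured against, as the shift of the all-gene median shows. Leaving out each library in turn gave medians of -0.998 to -0.87 in SUDHL6, -0.55 to -0.51 in Farage, -1.53 to -1.43 in SUDHL4 and -1.04 to -0.998 in the mean, and 43 to 45, 36 to 41, 46 to 47 and 46 to 47 genes called lower. Counts of genes whose response differed ranged over these fits from 19 to 25 (SUDHL6 minus Farage), 33 to 38 (SUDHL4 minus Farage) and 28 to 34 (SUDHL6 minus SUDHL4). With the replicate block 45, 41, 47 and 47 were called lower, Farage gaining GNL3 and PNO1, and no call of a gene given by library changed. A fit of 1 line alone gave 42 in SUDHL6, 44 in Farage and 47 in SUDHL4. Over the genes given by library 2216 of the alternative values kept direction and call, 90 lost the call, 7 gained it and 18 turned sign. At the shallowest library 3 reads are 0.362 CPM, below the level of every one of the 48 genes in every library.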
